A study of Mus musculus with 3 samples.

Results

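Splenic endothelial cells, the cells that line the blood channels of the spleen, were sought in a single-cell RNA data set of mouse spleen. Barcodes were kept with 500 or more genes, at most 10% mitochondrial UMIs (unique molecular identifiers, each standing for 1 captured RNA molecule) and a top hashtag count of at least 2 times the second. A gate then asked for 3 or more UMIs summed over Cdh5, Egfl7, Plvap and Kdr. It also asked for fewer than 20 H2-Ab1 UMIs, at most 1 Siglech UMI, no Xcr1 or Clec9a UMI, at most 1 UMI of Slc4a1 and Alas2 together, at most 1 Cd79a UMI and a CD11c antibody count under 500. It took 414 of 29012 kept barcodes, or 1.427%. The label held for a minority of them. In 88 of the 414 gated cells (21.26%) the 30 genes of a pan-endothelial list summed to 2000 or more counts per 1000000 gene UMIs (CPM). These 88 are called endothelial-like. The list was chosen with earlier results of these data known, and the line at 2000 CPM after the values were seen. The remaining 326 had a median sum of 278.9 CPM on this list, against 87.7 CPM in all other kept barcodes. They are called other gated cells, with no cell type name.

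The cells came from spleens of C57BL/6 mice, either leukemia-bearing or wild-type (WT), after 2 days of panobinostat, an inhibitor of histone deacetylases, or of vehicle. Cells carrying GFP were sorted away after gradient centrifugation, and magnetic depletion of other cells then enriched for dendritic cells, in every group alike. The endothelial-like cells are those that came through an enrichment for another cell type. The 6 hashed samples were leukemia panobinostat 1 and 2, WT panobinostat, leukemia vehicle 1 and 2, and WT vehicle, and all shared 1 capture. The hashtag names AML, LBH and D5W were read as leukemia, panobinostat and vehicle. The labels do not say whether hashed samples were separate animals, so p-values here measure the spread between these samples, which may be technical.

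Endothelium seals the vessel wall with junction proteins such as VE-cadherin (Cdh5) and claudin 5 (Cldn5), and it takes growth signals through the VEGF receptors and the angiopoietin system (Kdr, Flt1, Tek, Tie1). In the red pulp of the spleen, blood passes through sinuses whose lining cells take up waste molecules through scavenger receptors such as the stabilins. In mice, the transcription factors Nr5a1 and Nkx2-3 are known to be needed for normal spleen vessels.

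The 4 gate genes are Cdh5 on chromosome 8 from 104101625 to 104144511, Egfl7 on chromosome 2 from 26580014 to 26593120, Plvap on chromosome 8 from 71497765 to 71511752 and Kdr on chromosome 5 from 75932827 to 75978458 (GRCm38, GENCODE vM21, all protein-coding). The 250 bases before the annotated start are shown for 4 genes of different roles: Kdr and Tie1 (receptors), Stab2 (a scavenger receptor of sinus endothelium) and Cldn5 (a junction protein). They are RefSeq sequences of GRCm38.p6, written 5′ to 3′ on the gene's strand, at chr5:75978456-75978705 (minus) for Kdr, chr4:118489850-118490099 (minus) for Tie1, chr10:87007943-87008192 (minus) for Stab2 and chr16:18776597-18776846 (plus) for Cldn5. Capitals mark GGAAG or its reverse complement CTTCC, letters around which ETS family transcription factors, active in endothelium, often bind.
Kdr: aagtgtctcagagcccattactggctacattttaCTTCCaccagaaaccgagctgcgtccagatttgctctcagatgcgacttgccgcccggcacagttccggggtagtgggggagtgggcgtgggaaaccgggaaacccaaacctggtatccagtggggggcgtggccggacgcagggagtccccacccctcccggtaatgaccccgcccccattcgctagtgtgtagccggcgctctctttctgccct
Tie1: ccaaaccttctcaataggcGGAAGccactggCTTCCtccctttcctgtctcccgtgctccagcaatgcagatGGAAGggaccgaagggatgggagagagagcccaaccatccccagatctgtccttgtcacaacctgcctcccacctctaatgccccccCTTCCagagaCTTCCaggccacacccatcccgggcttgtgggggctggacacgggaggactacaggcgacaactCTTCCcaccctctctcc
Stab2: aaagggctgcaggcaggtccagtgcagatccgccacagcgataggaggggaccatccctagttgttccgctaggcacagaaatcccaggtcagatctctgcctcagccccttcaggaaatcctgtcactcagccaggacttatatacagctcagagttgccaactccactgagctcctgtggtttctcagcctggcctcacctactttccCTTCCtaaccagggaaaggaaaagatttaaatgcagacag
Cldn5: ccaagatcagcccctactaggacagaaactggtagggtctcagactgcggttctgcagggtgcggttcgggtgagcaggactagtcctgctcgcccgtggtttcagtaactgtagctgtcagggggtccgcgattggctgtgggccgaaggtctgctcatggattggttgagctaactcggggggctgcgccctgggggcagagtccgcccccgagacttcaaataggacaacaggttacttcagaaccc
Kdr and Stab2 each held 1 match, Tie1 held 6 and Cldn5 held 0. Of all 32851 RefSeq promoter windows of this length, 64.07% held at least 1 match and 10.69% held 3 or more. Among the pan-endothelial list, 17 of 30 genes had a window in the table, and 17 of their 21 windows (80.95%) held a match. A match is a description of the letters and not a binding site.

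The gated cells fell into separate ranges of the pan-endothelial sum. It was under 1000 CPM in 319 cells, between 1000 and 2000 CPM in 7, between 2000 and 4000 CPM in 4 and at 4000 CPM or more in 84. The line at 2000 CPM was drawn after these values were seen. The endothelial-like cells had a median of 3039 UMIs (776 to 28535) and 1597.5 genes, and the other gated cells had a median of 18647.5 UMIs. In leukemia panobinostat 2, the endothelial-like median of 2558.5 UMIs was the lowest relative to the sample's own median of 7694.5. Just inside the gate, 150 barcodes had a marker sum of exactly 3 UMIs, 7 of them at 2000 CPM or more. Just outside it, 185 barcodes with a sum of 2 UMIs passed every other step, 1 of them at 2000 CPM or more. Of the 326 other gated cells, 233 had UMIs of only 1 of the 4 gate genes, against 3 of the 88 endothelial-like cells. All 4 gate genes were detected in 27 endothelial-like cells and in 1 other gated cell.

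**Figure D1:**
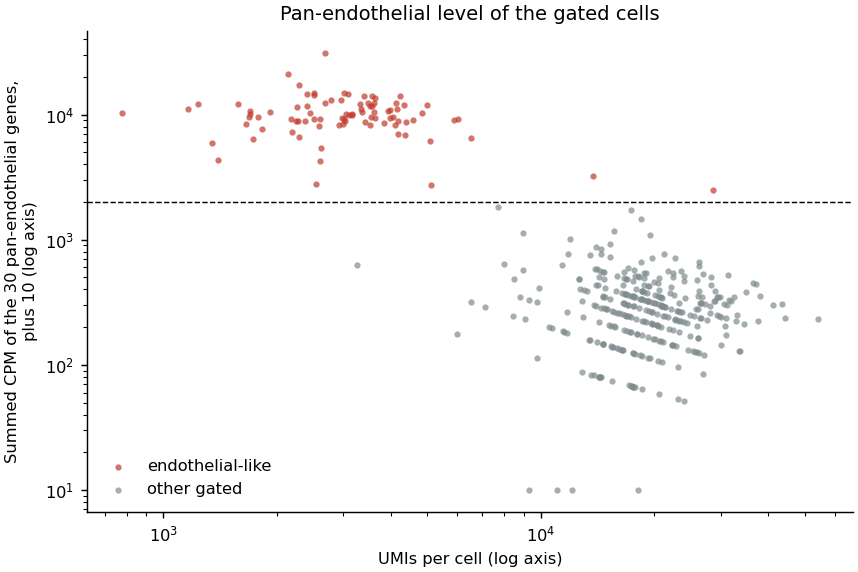
Each point is 1 of the 414 gated cells, with its UMIs on the x axis and the summed CPM of the 30 pan-endothelial genes plus 10 on the y axis (both log axes); red points are the 88 endothelial-like cells, grey points the 326 other gated cells, and the dashed line is 2000 CPM. Only 11 cells lie between 1000 and 4000 CPM, and 2 endothelial-like cells exceed 10000 UMIs.

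The gate genes themselves were high in the endothelial-like cells, which the rule fixed and which is therefore a description. Plvap, which forms the diaphragms of endothelial pores, had 1756 CPM in endothelial-like cells, 18.43 CPM in other gated cells and 4.505 CPM in all other kept barcodes. Egfl7, a protein that endothelium secretes into the vessel wall, had 871.4 CPM in endothelial-like cells, 201.5 CPM in other gated cells and 19.6 CPM elsewhere. Cdh5 had 400.2 CPM in endothelial-like cells, 1.394 CPM in other gated cells and 8.455 CPM elsewhere. Kdr, the main VEGF receptor, had 267.9 CPM in endothelial-like cells, 1.239 CPM in other gated cells and 6.883 CPM elsewhere. So the other gated cells were above the remaining barcodes in Plvap and Egfl7 and below them in Cdh5 and Kdr. CPM values here are UMIs of all cells of a set added together, divided by that set's gene UMIs. They count 3′ ends and do not scale with transcript length.

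Of the 30 pan-endothelial genes, all 30 had at least 1 UMI in the endothelial-like cells and 26 had the 10 or more UMIs over the set that a comparison needed. All 26 were 2-fold or more above the remaining kept barcodes, with a median log2 ratio of 7.85. Over all 5634 genes measured in this way, 2044 (36.3%) were 2-fold or more higher and 618 (11%) were 2-fold or more lower, with a median log2 ratio of 0.6. This list drew the line at 2000 CPM, so its excess carries no test. Cldn5 had 1927 CPM in endothelial-like cells, 5.73 CPM in other gated cells and 1.919 CPM elsewhere, and a UMI of it was found in 96.59% of the endothelial-like cells. Ramp2, the partner protein of the adrenomedullin receptor, had 1543 CPM, and Ptprb, the endothelial phosphatase VE-PTP, had 1004 CPM. Eng, a TGF-beta co-receptor, had 658.4 CPM, and Pecam1, a junction molecule, had 287.2 CPM. Icam2, an adhesion molecule, had 687.4 CPM in endothelial-like cells and also 147.9 CPM in other gated cells.

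**Figure D2:**
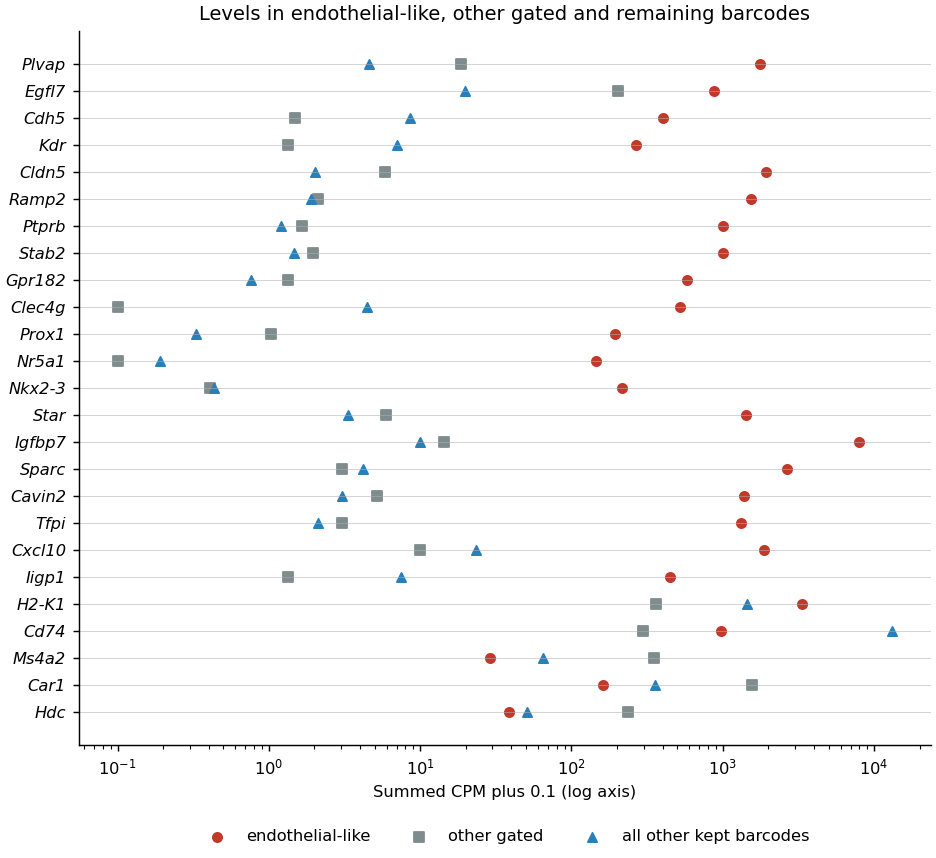
Summed CPM plus 0.1 on a log axis for 25 genes in endothelial-like cells (red circles), other gated cells (grey squares) and all other kept barcodes (blue triangles). From Plvap down to H2-K1 the red point lies farthest right (Nr5a1 at 145.2 CPM against 0 and 0.08984), while for Cd74 the blue point does and for Ms4a2, Car1 and Hdc the grey point does.

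Genes of sinus lining and scavenging endothelium were present in most endothelial-like cells. Of 19 genes in that list, 15 had a UMI and 14 were measured. Among the 14, 11 were 2-fold or more above the remaining barcodes and 1 was 2-fold or more below. Stab2, which clears hyaluronan and other waste, had 997.3 CPM in endothelial-like cells, 1.858 CPM in other gated cells and 1.357 CPM elsewhere, and was found in 82 of the 88 cells. Gpr182, a chemokine scavenging receptor of sinusoidal and lymphatic endothelium, had 577.7 CPM and was found in 79.55% of the cells. Clec4g, a lectin known from liver and lymph node sinus endothelium, had 519.6 CPM in endothelial-like cells and no UMI in other gated cells, which allows up to 0.4646 CPM there. Maf, a transcription factor of sinusoidal endothelium, had 629.4 CPM. F8, coagulation factor VIII, had 277.6 CPM, and Stab1, the second stabilin, had 345.3 CPM. Lyve1, a hyaluronan receptor of lymphatic and liver sinus endothelium, had no UMI in the endothelial-like cells, which allows up to 9.682 CPM.

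Markers of other vessel types were mixed. The lymphatic genes Prox1, the transcription factor that sets lymphatic identity, and Flt4, the receptor for VEGF-C, had 193.6 and 171.1 CPM in the endothelial-like cells, whereas Pdpn, a membrane protein of lymphatic vessels, was at 0 along with Lyve1. Nr2f2, a transcription factor of veins, had 474.4 CPM, and Ackr3, a chemokine decoy receptor, had 642.3 CPM. The postcapillary and activated-vessel genes Selp, Sele, Ackr1 and Madcam1 had no UMI. The arterial genes Gja5, Hey1 and Bmx also had no UMI, while Jag1, a Notch ligand in that list, had 209.8 CPM. Of 14 arterial genes 8 had a UMI, and all 3 measured ones were 2-fold or more above the remaining barcodes. Of 14 venous and postcapillary genes 8 had a UMI, and all 5 measured ones were higher. Of 12 capillary genes 9 had a UMI. Among the 7 measured capillary genes, 6 were higher and 1 was lower. Vwf, a clotting protein stored by much of the endothelium, had 1 UMI.

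Nr5a1, Cyp21a1 and Sema3a led the genes ranked by the ratio of endothelial-like cells to the remaining barcodes. They and the genes described with them here were looked at after their values were seen. Nr5a1 (chromosome 2 from 38692656 to 38714542) had 145.2 CPM in endothelial-like cells, no UMI in other gated cells and 0.08984 CPM elsewhere, a 1617-fold ratio of the endothelial-like level to that elsewhere, with an exact 95% counting interval of 986.7 to 2691. It was found in 32 of the 88 endothelial-like cells and in 0.08742% of the remaining barcodes. Nkx2-3 (chromosome 19 from 43612325 to 43615892) had 216.2 CPM in endothelial-like cells and 0.3369 CPM elsewhere. Star, which moves cholesterol into mitochondria for steroid synthesis and is a known target of Nr5a1 in the adrenal gland and gonads, had 1414 CPM in endothelial-like cells and 3.222 CPM elsewhere, and was found in 90.91% of the endothelial-like cells. Cyp21a1, the steroid 21-hydroxylase, had 196.9 CPM, a value that is uncertain because the gene has a near-identical pseudogene copy. Cyp11b1 and Hsd3b1, which carry out other steps of steroid synthesis in the adrenal gland, had no UMI. Sema3a and Sema3d, secreted guidance proteins, had 487.3 and 597.1 CPM.

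By the same ratio taken over all 414 gated cells, the 12 leading genes were Cldn5, Sorbs2, Ramp2, Igfbp7, Lrg1, Tfpi, Ly6c1, Sparc, Cavin2, Star, Plvap and Egfl7. Their ratios to the remaining barcodes lay between 48.83 for Cldn5 (43.6 to 54.69, exact interval for counting error only) and 11.85 for Egfl7 (11.2 to 12.53). Igfbp7, a secreted protein of vessel walls, had 8011 CPM in the endothelial-like cells and was found in all of them. The 10 genes with most UMIs over all gated cells were Malat1, Hbb-bs and 8 genes of ribosomal proteins.

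Genes of caveolae, matrix, clotting and growth signalling were also detected in the endothelial-like cells. All 12 measured genes for caveolae and lipid handling were 2-fold or more above the remaining barcodes, with Cavin2 at 1388 CPM, Cavin3 at 806.9 CPM and Cav1 at 258.2 CPM, all structural parts of caveolae. All 9 measured genes of basement membrane and matrix were higher, with the matrix protein Sparc at 2653 CPM and the collagen IV chains Col4a1 and Col4a2 at 471.2 and 342.1 CPM. In the list of clotting and vessel tone, 8 of 10 measured genes were higher, among them Tfpi, the inhibitor of the tissue factor pathway, at 1323 CPM and Thbd, thrombomodulin, at 116.2 CPM. All 12 measured VEGF and angiopoietin genes were higher, including the receptors Flt1 (274.3 CPM), Tie1 (300.2 CPM) and Tek (58.09 CPM). Of 11 measured BMP and TGF-beta genes 7 were higher, with Bmp2, a ligand, at 306.6 CPM and Id3, a BMP target, at 355 CPM. Of 12 measured genes of leukocyte adhesion and transit 11 were higher, with Vcam1 at 287.2 CPM. Of 6 measured Notch genes 3 were higher and 1 was lower. These counts stand beside 36.3% of all measured genes higher and rest on cells that were chosen by expression.

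Immune genes are set here beside the same 36.3% of all measured genes that were 2-fold or more higher and 11% that were lower. Of 26 measured interferon-stimulated genes 13 were 2-fold or more higher and 3 were lower in endothelial-like cells. Iigp1, an interferon-induced GTPase, had 445.4 CPM in endothelial-like cells, 1.239 CPM in other gated cells and 7.37 CPM elsewhere. Cxcl10, an interferon-induced chemokine that attracts T cells, had 1869 CPM in endothelial-like cells, 9.912 CPM in other gated cells and 23.35 CPM elsewhere. Of 17 measured MHC class I genes 7 were higher and 1 was lower, a share near that of all genes, with H2-K1 at 3321 CPM in endothelial-like cells and 1454 CPM elsewhere. All 10 MHC class II genes were lower, with Cd74, the class II invariant chain, at 977.9 CPM in endothelial-like cells and 13110 CPM elsewhere. H2-Ab1, a class II gene, was part of the gate. Kitl, the ligand of the receptor Kit, had 351.8 CPM. Of 3 measured histone deacetylases, the direct targets of panobinostat, 1 was higher, Hdac7, at 87.14 CPM in endothelial-like cells and 14.1 CPM elsewhere.

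The endothelial-like cells varied among themselves. A Prox1 UMI was found in 43 cells, a Nr5a1 UMI in 32, either in 63 and both in 12. Esm1, a marker of growing vessel tips, or Gpihbp1, which anchors lipoprotein lipase in capillaries, was found in 5 cells: 1 of leukemia panobinostat 1, 2 of WT panobinostat and 2 of WT vehicle. These 5 cells had between 2441 and 4193 UMIs, all had Stab2 and Kdr UMIs, and together they held 23 of the 83 Kdr UMIs of the endothelial-like cells and none of the 60 Fabp4 UMIs. In the cell of leukemia panobinostat 1, 16 Esm1, 13 Gpihbp1 and 10 Kdr UMIs were counted among 2680. Cell cycle genes were concentrated in few cells, and 10 endothelial-like cells had UMIs of 5 or more genes of that list.

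RNA known from other spleen cells was measurable in the endothelial-like cells, and its source was not tested. Of 4 measured red pulp macrophage and monocyte markers, 3 were 2-fold or more below the remaining barcodes and 1 was above. Of 4 measured stem and progenitor markers, 2 were below and 2 were above. Markers of T and NK cells and of stromal and mural cells had no UMI in any sample. The 10 dendritic markers included 9 at 2-fold or more below the remaining barcodes and 1 above, Zbtb46, a transcription factor also known from endothelium, at 167.8 CPM. The gate limited Xcr1, Clec9a and Siglech of this list, and also H2-Ab1 and the CD11c antibody count. Low values of these were therefore fixed by the rule. Cd74, H2-Aa, H2-Eb1 and H2-Ab1 stood at 7.46, 9.806, 10.18 and 7.86% of their level elsewhere, and the hemoglobin genes Hba-a1 and Hbb-bs at 25.03 and 23.47%. With every cell thinned to 1000 UMIs, which left out 1 endothelial-like cell and 62 of the remaining barcodes, a Cldn5 UMI was expected in 82.51% of endothelial-like cells, 0.6506% of other gated cells and 0.2045% of the rest. The same share for Stab2 was 67.04, 0.2743 and 0.1616%, and for Cxcl10 it was 59.62, 1.012 and 1.556%. For Egfl7 it was 60.9, 19.65 and 1.162%. Without thinning, Stab2 was found in 93.18% and Cxcl10 in 76.14% of endothelial-like cells.

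Besides Egfl7, the 326 other gated cells were high in a different set of genes. Egfl7 stood 10.28-fold above the remaining barcodes at 201.5 CPM, which the rule fixed. In 233 of these cells Egfl7 was the only gate gene with a UMI. Ms4a2, the beta chain of the high-affinity IgE receptor, had 348.9 CPM, Hdc, which makes histamine, had 236.5 CPM, and Car1, a carbonic anhydrase, had 1570 CPM. All 3 of these genes were found together in 269 of the 326 cells and in 4 of the 88 endothelial-like cells. Of 11 measured stem and progenitor markers 9 were 2-fold or more higher than in the remaining barcodes, and of 5 measured mast and basophil markers 4 were, against 17.5% of 11358 genes higher and 21.7% lower. Of 17 measured pan-endothelial genes 7 were 2-fold or more higher and 5 were lower. Among those higher was Icam2 at 147.9 CPM (5.357-fold, 5.006 to 5.728). Among mast and basophil markers, Mcpt8 had no UMI and Cpa3 had 2.323 CPM. Of the 326 cells, 309 had over 10000 UMIs.

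Endothelial-like cells were few in every sample. They made up 5 of 3988 kept barcodes in leukemia panobinostat 1 (0.1254%), 24 of 2848 in leukemia panobinostat 2 (0.8427%) and 26 of 4304 in WT panobinostat (0.6041%). They made up 2 of 4469 in leukemia vehicle 1 (0.04475%), 4 of 2580 in leukemia vehicle 2 (0.155%) and 27 of 10823 in WT vehicle (0.2495%). Leukemia panobinostat 2 and WT panobinostat were above every vehicle sample, and leukemia panobinostat 1 was below 2 of the 3. The mean share was 0.5241 ± 0.3653% with panobinostat and 0.1498 ± 0.1025% with vehicle (SD, n = 3 each). The difference of 0.3743 percentage points gave p = 0.3 in an exact two-sided permutation test, where 3 against 3 samples allow no p under 0.1. The sort and the selection also set these shares.

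The share of all gated cells ran the other way and depended on 1 sample. It was 0.4263% in leukemia panobinostat 1, 1.44% in leukemia panobinostat 2 and 1.557% in WT panobinostat, against 0.2685% in leukemia vehicle 1, 8.217% in leukemia vehicle 2 and 0.6006% in WT vehicle. The mean was 1.141 ± 0.6216% with panobinostat and 3.029 ± 4.496% with vehicle (SD, n = 3 each; exact two-sided permutation p = 0.9). Leukemia vehicle 2 held 212 of the 414 gated cells, of which 4 were endothelial-like, and its median own-hashtag count was 78.5 in gated cells and 266 in all kept barcodes, the lowest of the 6 samples. Without it the difference turned to 0.7063 percentage points (exact permutation p = 0.4). The Siglec-H antibody count, which the gate did not use, had a mean of sample medians of 246.3 ± 3.055 with panobinostat and 254.2 ± 11.81 with vehicle in gated cells (SD, n = 3 each; exact two-sided permutation p = 0.4).

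**Figure D3:**
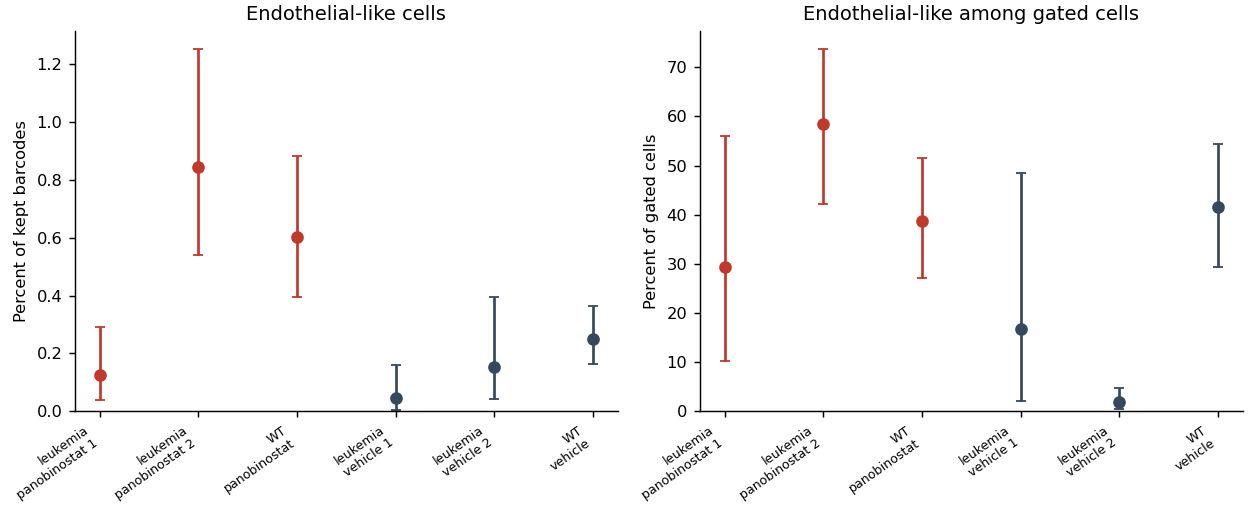
Endothelial-like cells as a percent of kept barcodes (left) and of gated cells (right) in each hashed sample, with exact 95% binomial intervals; panobinostat samples are red, vehicle samples dark blue. On the left leukemia panobinostat 2 (0.8427%) and WT panobinostat (0.6041%) lie above the 3 vehicle samples, and on the right leukemia vehicle 2 is lowest at 1.887%.

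The sinus marker and junction genes of endothelial-like cells overlapped between treatments. Stab2 had 887.7 CPM in leukemia panobinostat 1, 1072 CPM in leukemia panobinostat 2 and 808.3 CPM in WT panobinostat, against 990.7 CPM in leukemia vehicle 1, 1085 CPM in leukemia vehicle 2 and 1181 CPM in WT vehicle. Cldn5 had 4029, 2191 and 1851 CPM in the panobinostat samples, against 1698, 2171 and 1497 CPM in the vehicle samples, in the same order of samples. For both genes the ranges of the treatments overlapped. The summed pan-endothelial list stood at 14000, 9314 and 8317 CPM with panobinostat, against 9482, 9972 and 9244 CPM with vehicle. The summed sinus and scavenger list stood at 5873, 4964 and 3676 CPM with panobinostat, against 5236, 4613 and 5059 CPM with vehicle. The summed interferon-stimulated list stood at 5873, 6918 and 6058 CPM with panobinostat, against 4387, 6512 and 6219 CPM with vehicle, and these ranges overlapped as well.

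Iigp1 did not overlap between the treatments in its values but did in its counting intervals. Ahr was counted only with panobinostat, and Lrg1 overlapped. Iigp1 had 478, 693.4 and 443.2 CPM in leukemia panobinostat 1, leukemia panobinostat 2 and WT panobinostat, against 141.5, 203.5 and 337.3 CPM in leukemia vehicle 1, leukemia vehicle 2 and WT vehicle, so every panobinostat sample was above every vehicle sample. The leukemia vehicle values rest on 1 and 3 UMIs. Ahr, the aryl hydrocarbon receptor, had 3, 4 and 8 UMIs in the panobinostat samples (204.9, 63.04 and 69.53 CPM), against 0, 0 and 0 UMIs in the vehicle samples. A count of 3 UMIs equals 424.6 CPM in leukemia vehicle 1 and 203.5 CPM in leukemia vehicle 2. The 0 counts there cannot separate these samples from the panobinostat samples. Lrg1, a secreted protein of stimulated endothelium, had 1093, 1340 and 591 CPM with panobinostat, against 1698, 5902 and 632.4 CPM with vehicle, and was highest in leukemia vehicle 2, which held 87 of its UMIs in 4 cells. These genes were picked after their values were seen and have no test, because only 1 vehicle sample held 10 or more endothelial-like cells. The share of all genes without overlap was not counted.

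**Figure D4:**
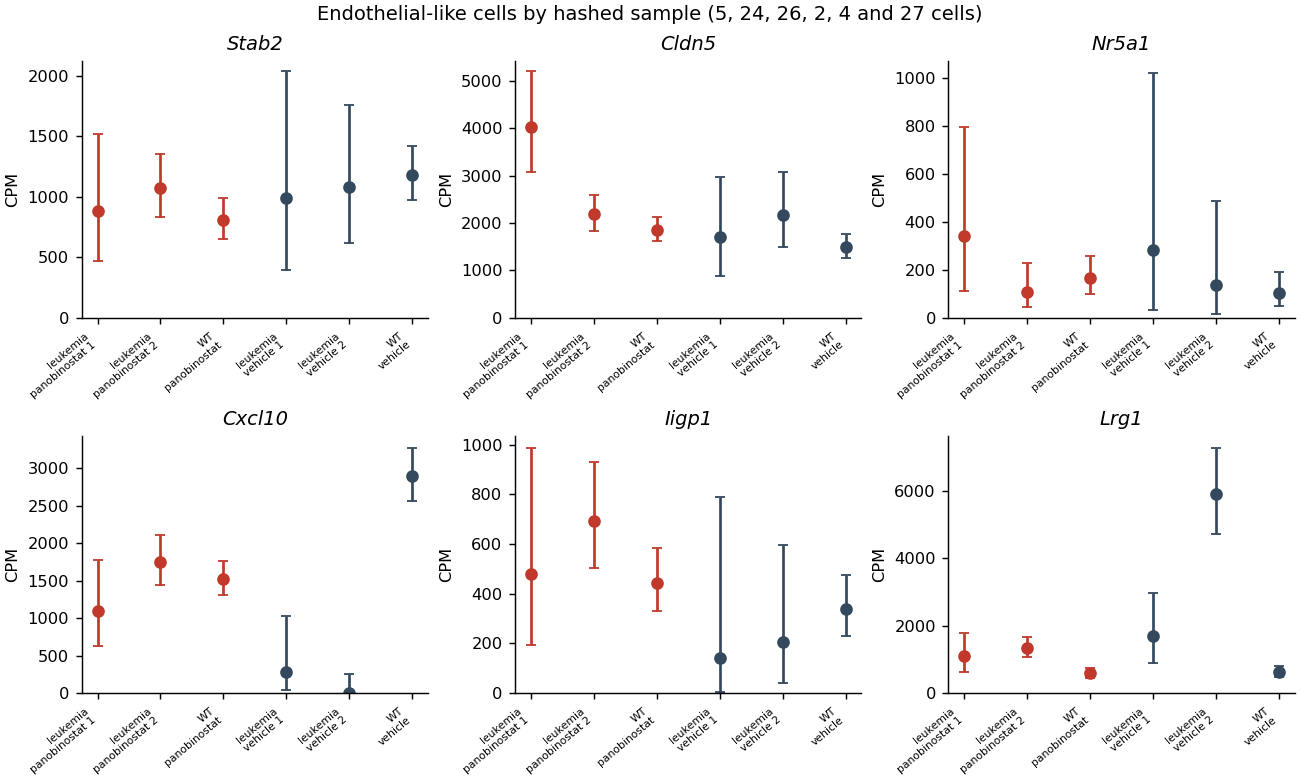
CPM of 6 genes in the endothelial-like cells of each hashed sample (5, 24 and 26 cells with panobinostat in red, 2, 4 and 27 cells with vehicle in dark blue), with exact 95% Poisson intervals that cover counting error only. Stab2 intervals overlap in all samples, Cxcl10 is highest in WT vehicle at 2899 CPM and at 0 in leukemia vehicle 2, and Lrg1 is highest in leukemia vehicle 2 at 5902 CPM.

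The tests on counts summed over all gated cells of a sample called no gene for either factor. With edgeR's quasi-likelihood test over 6 samples, 0 of 6629 genes (0%) had an adjusted p under 0.05 for panobinostat against vehicle, and 169 had an unadjusted p under 0.05. For leukemia against WT the counts were 0 (0%) and 84. DESeq2 called 0 genes for panobinostat and 1 (0.0151%) for leukemia, the hemoglobin gene Hba-a1 at a log2 change of -0.62. Without leukemia vehicle 2, edgeR called 50 genes (1.04%) for leukemia against WT, 43 higher and 7 lower. Without WT panobinostat it called 40 (0.696%), all lower, and without WT vehicle 1 (0.0174%), higher. The 4 gate genes chose the cells and are not read as tested. Of the 30 pan-endothelial genes 20 passed the filter on low counts, and 0 of the 20 were called. The endothelial-like share of the gated cells was 5 of 17, 24 of 41 and 26 of 67 cells in the panobinostat samples, against 2 of 12, 4 of 212 and 27 of 65 cells in the vehicle samples. Without WT vehicle, 88 of 5734 genes (1.53%) were called, 84 higher and 4 lower, with 9 of 18 pan-endothelial genes and 5 of 10 sinus and scavenger genes among those higher. Without WT panobinostat 71 genes (1.23%) were called, 68 higher and 3 lower. With leukemia vehicle 2 left out instead, 4 genes (0.0835%) were called and 0 of 17 pan-endothelial genes. The 4 were Hba-a1, higher, and Igkc, Ighm (immunoglobulin chains) and Ccl5 (a chemokine of T and NK cells), lower. In the other gated cells alone, 0 of 5915 genes (0%) were called for panobinostat and 2 (0.0338%), Hba-a1 and Igkc, for leukemia against WT. In summed counts, fewer endothelial-like cells and less RNA per cell cannot be told apart, and the part of the cell mix in these calls was not tested.

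In the 4 leukemia samples alone, 10 of 3872 genes (0.258%) were called higher with panobinostat and 0 lower, and with the replicate numbers as a block 0 were called (200 at an unadjusted p under 0.05). The 10 included Cxcl10 (log2 5.29), Iigp1 (6.27) and Gpr182 (5.44), and also Plpp3, a lipid phosphatase of endothelium, which had no UMI in either vehicle sample and so gets no fold here. In other gated cells these 4 genes had 9.912, 1.239, 1.239 and 0.9292 CPM, and in endothelial-like cells 1869, 445.4, 577.7 and 490.6 CPM. Within endothelial-like cells, the ratio of leukemia panobinostat to leukemia vehicle was 3.56 for Iigp1 (1.308 to 13.56) and 17.73 for Cxcl10 (4.808 to 148). These 2 values are ratios and not on the log2 scale. Gpr182 had 751.2 and 756.4 CPM there with panobinostat, against 283 and 542.7 CPM with vehicle. The endothelial-like share of gated cells differed between these 4 leukemia samples as given above. Its part in the calls was not tested.

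The panobinostat effect in gated cells was set against that in 5544 cells gated for type 1 conventional dendritic cells (Xcr1 and Clec9a). Of 11819 genes 2 (0.0169%) differed by edgeR's quasi-likelihood test. Hbb-bs, a hemoglobin chain, had 8748, 12560 and 22390 CPM in gated cells of the panobinostat samples, against 8150, 5770 and 9655 CPM in those of the vehicle samples. In the dendritic cells Hbb-bs had 583.5, 526.5 and 689.2 CPM with panobinostat, against 1034, 1190 and 940.6 CPM with vehicle. The effects differed by 1.56 on the log2 scale (adjusted p = 0.00572). Ahr differed by 4.46 on the log2 scale (adjusted p = 0.0312), on 4, 5 and 8 UMIs in gated cells with panobinostat, against 0, 3 and 0 UMIs with vehicle. Of these, 3, 4 and 8 with panobinostat lay in endothelial-like cells, and the 3 with vehicle in other gated cells. The part of the cell mix was not tested. In the dendritic cells Ahr had 106.7, 96.15 and 117.3 CPM with panobinostat, against 103.8, 90.95 and 134.5 CPM with vehicle. Without leukemia vehicle 2, which held those 3 UMIs, the fitted Ahr difference was 8.83 against vehicle samples at 0, which is no bound. Without leukemia panobinostat 1 neither gene was called, with log2 differences of 1.78 for Hbb-bs and 4.44 for Ahr and adjusted p of 0.089 for Hbb-bs and 0.722 for Ahr by edgeR. The count of differing genes was 260 (2.14%; 235 with a higher effect in gated cells and 25 with a lower one) without WT vehicle and 259 (2.11%; 235 and 24) without WT panobinostat. Without leukemia vehicle 2 it was 53 (0.459%), with 11 higher and 42 lower. Against all other kept barcodes in place of the dendritic cells it was 109 (0.81%; 88 higher and 21 lower), and the Hbb-bs difference was 0.61.

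WT mice gave the best-filled pair of samples, 26 endothelial-like cells with panobinostat and 27 with vehicle, 1 sample each and so with no test. Among 1856 genes with 20 or more UMIs over both, 83 (4.47%) were 2-fold or more higher with panobinostat and 90 (4.85%) were 2-fold or more lower, with a median log2 ratio of -0.02. Endothelial markers lay on both sides of 1. The gate genes and the pan-endothelial list chose these cells, so their ratios are a description. The ratio was 0.6313 for Plvap (exact 95% interval 0.5058 to 0.7867), 1.237 for Cldn5 (0.9955 to 1.54), 1.166 for Cdh5 (0.7071 to 1.945), 1.021 for Kdr (0.5524 to 1.908), 0.8246 for Egfl7 (0.6098 to 1.115) and 0.6847 for Stab2 (0.5144 to 0.9095). Without the 2 cells over 10000 UMIs the Plvap ratio was 0.7319 (0.582 to 0.9188) and the Stab2 ratio 0.7498 (0.5599 to 1.001). The 8 measured sinus and scavenger genes had a median log2 ratio of -0.57, or -0.39 without those cells, with 0 at 2-fold or more either way. Of 16 pan-endothelial genes 1 was higher, the receptor Tie1 at 399.8 CPM with panobinostat and 179.2 CPM with vehicle, and 1 was lower, the VEGF receptor Flt1 at 208.6 CPM with panobinostat and 474.3 CPM with vehicle.

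Cell cycle and heat shock genes were among those higher with panobinostat in WT, whereas 0 of 9 measured immediate early and stress genes were 2-fold or more higher. Of 8 measured cell cycle genes 4 were 2-fold or more higher, among them Cenpf, a kinetochore protein, with 48 UMIs with panobinostat and 2 with vehicle (19.79-fold, 5.188 to 168.1) and Top2a, a topoisomerase, with 39 UMIs with panobinostat and 7 with vehicle (4.594-fold, 2.032 to 12.17). A single WT panobinostat cell of 28535 UMIs held 24.8% of that sample's endothelial-like UMIs and 279 of its 537 cell cycle UMIs. That cell had the lowest pan-endothelial sum of the 88, at 2488 CPM, with 5 Stab2 UMIs and no Kdr UMI. It also held 23 Car1, 1 Ms4a2 and 1 Hdc UMIs, the genes described above for the other gated cells. Whether its RNA came from 1 cell type was not tested. Another 3 WT panobinostat cells held 120, 57 and 32 of the cell cycle UMIs, and no other cell of that sample held more than 6. A single WT vehicle cell of 13781 UMIs held 164 of 218, and the next held 16. The cell cycle ratios thus rest on 4 of 26 WT panobinostat cells and 2 of 27 WT vehicle cells. Without both cells no UMI of either gene was left in vehicle. Against a floor of 3 counts Top2a was 5.623-fold higher (lower limit 4.121) and Cenpf 11.87-fold higher (lower limit 9.193). Of 11 heat shock genes 2 were higher: Hspa1a with 54 UMIs with panobinostat and 18 with vehicle (2.474-fold, 1.428 to 4.482) and Hspb1 with 24 UMIs with panobinostat and 4 with vehicle (4.947-fold, 1.7 to 19.62). Hspa1a was found in 8 WT panobinostat and 7 WT vehicle cells, and Hspb1 in 4 WT panobinostat and 3 WT vehicle cells. Without the large cells Hspa1a was 2.812-fold and Hspb1 5.389-fold higher. Mt1, a metallothionein, was 8.246-fold higher with all cells and 0.6248-fold without the large ones. Adamts1, a secreted protease that acts on matrix and vessels, had 23 UMIs with panobinostat and 2 with vehicle (9.482-fold, 2.343 to 82.98).

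Lower with panobinostat in WT were Plpp3, with 234.7 CPM with panobinostat and 811.6 CPM with vehicle (0.2891-fold, 0.1793 to 0.4534), and Hpgd, which breaks down prostaglandins, with 95.6 CPM with panobinostat and 326.7 CPM with vehicle (0.2926-fold, 0.1327 to 0.5981). Gas6, a ligand of the TAM receptors, was at 0.3227-fold (0.1314 to 0.7238). Cxcl10 had 1521 CPM with panobinostat and 2899 CPM with vehicle (0.5247-fold, 0.4316 to 0.6365), or 0.6683-fold without the large cells. Of 10 measured interferon-stimulated genes 1 was 2-fold higher and 1 lower, with a median log2 ratio of 0.01. Of 7 measured genes reported elsewhere to respond to deacetylase inhibitors 0 were higher and 1 was lower. The 2-fold lists differed with the large cells left out: 119 genes were higher and 87 lower, of which 65 and 57 were shared with the full set.

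**Figure D5:**
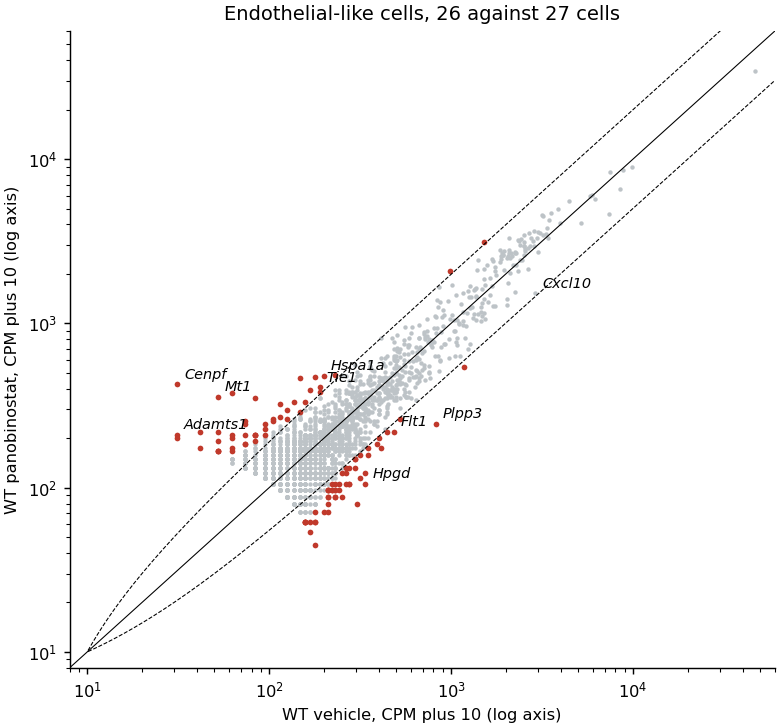
Each point is 1 of 1856 genes in endothelial-like cells, with CPM plus 10 in WT panobinostat (26 cells) on the y axis and in WT vehicle (27 cells) on the x axis (log axes); dashed lines mark 2-fold, and red points are 47 higher and 54 lower genes whose ratio is 2-fold or more with an exact 95% interval clear of 1. Cenpf, Mt1 and Adamts1 lie far above the lines and Plpp3 and Hpgd below them.

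Leukemia could be set against WT in 1 pair, leukemia panobinostat 2 (24 cells) over WT panobinostat (26 cells), again with no test. Among 1547 genes 67 (4.33%) were 2-fold or more higher in leukemia and 112 (7.24%) were 2-fold or more lower. All 7 measured cell cycle genes were lower, with Mki67, a marker of dividing cells, at 1 UMI in leukemia panobinostat 2 and 36 in WT panobinostat (0.05037-fold, 0.001241 to 0.2991). Without the single large WT panobinostat cell Mki67 was at 0.09091-fold (0.002159 to 0.5909), and the median log2 ratio of the 7 genes was -2.05 in place of -2.40. The WT panobinostat side rests on the same 4 of 26 cells, while the highest leukemia panobinostat 2 cell held 14 of that sample's 75 cell cycle UMIs. Hspa1a had 9 UMIs in leukemia panobinostat 2 and 54 in WT panobinostat (0.3022-fold). Plpp3 had 630.4 CPM in leukemia panobinostat 2 and 234.7 CPM in WT panobinostat (2.686-fold, 1.608 to 4.552), and Hpgd was 3.627-fold higher (1.685 to 8.283). Mt1 turned with the large cell, at 0.4533-fold (0.2022 to 0.9224) with it and 6.818-fold (1.453 to 64) without it. Stab2 had a ratio of 1.326 (0.9552 to 1.832).

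In leukemia, the 29 endothelial-like cells of both panobinostat samples can be set beside the 6 of both vehicle samples, as counts with no test. Of 796 genes with 20 or more UMIs in leukemia and in WT, 21 (2.64%) were higher in both panobinostat samples than in both vehicle samples with a counting interval clear of 1, and 37 (4.65%) were lower. Cxcl10 had 127 UMIs in 78099 with panobinostat and 2 in 21807 with vehicle, a ratio of 17.73 (4.808 to 148). Without leukemia vehicle 2 the Cxcl10 ratio was 5.745 (1.558 to 47.95). Without leukemia vehicle 1 no vehicle UMI was left, and the Cxcl10 ratio to a floor of 3 counts was 7.99 (lower limit 6.404). Plpp3 had 48 UMIs with panobinostat and 0 with vehicle. Against a floor of 3 counts over the vehicle group Plpp3 was 4.468-fold higher (lower limit 3.495). The same ratio was 1.448 without leukemia vehicle 2 (lower limit 1.133) and 3.02 without leukemia vehicle 1 (lower limit 2.363). Lrg1 was at 0.2849-fold (0.2137 to 0.3797), Tfpi at 0.4508-fold (0.3403 to 0.6001) and Clu, a secreted chaperone, at 0.4866-fold (0.3598 to 0.6626). Leukemia vehicle 2 held 87 of the 99 Lrg1 UMIs and 69 of the 83 Tfpi UMIs of the vehicle cells. Without it Lrg1 was at 0.7615-fold (0.4174 to 1.523) and Tfpi at 0.866-fold (0.4985 to 1.627), both intervals holding 1, and Clu at 0.5809-fold (0.3565 to 0.998). Malat1, a nuclear RNA whose share moves with RNA quality, differed too, by 1.848-fold (1.712 to 1.998). Its part in the other ratios was not tested.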

How the data were processed

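RNA, 2 antibody tags and 6 hashtags were counted in 1 capture of pooled mouse spleen cells, with 10x 3′ v3 chemistry per the labels. Values are UMI counts, not normalized, as deposited in 1 matrix for all libraries. Cell Ranger 3.1.0 and Seurat 3.1.0, with builds mm10 and GRCm38, are named in the submitters' processing notes. Nothing was realigned. Of 38717 barcodes, 36904 passed the gene and mitochondrial filters and 29012 the hashtag filter; 7892 with several hashtags were left out, and no barcode was listed more than once. Kept barcodes of a sample had a median of 6171 to 11850 UMIs. Doublets were scored by simulated doublets among nearest neighbours, after Scrublet: 3.854% of kept and 7.337% of several-hashtag barcodes reached 0.3, as did 5 gated and 0 endothelial-like cells, which stayed in.

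UMIs of gated cells were summed per hashed sample and tested with edgeR 4.0.16 (quasi-likelihood, TMM, filterByExpr, treatment plus disease state; samples with 10 or more cells) in R 4.3.3, with Benjamini-Hochberg adjustment over all genes tested. DESeq2 1.42.0 was an alternative. The fits were tested on simulated data. Shares were compared with scipy 1.17.1. Intervals are exact 95% intervals and, like floors of 3 counts, cover counting error only. Single-sample ratios needed 20 or more UMIs over the pair. All gated cells entered each fit, and endothelial-like cells were separated after their values were seen.

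Members and gene lists were chosen with earlier results of these data known. Named genes were the gate genes, the up to 4 genes of each list with the highest CPM in gated cells and every list member called, called genes, the 12 genes with the highest ratio to the remaining barcodes (50 or more CPM) and the 10 with the highest level. Other genes named, including all in the single-sample ratios, were chosen after their values were seen. Sequences are from RefSeq.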

Additional observations from a re-analysis of the deposited data

Results flagged for a closer look

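Endothelial signal was present outside the gate. Among kept barcodes that failed it, 65 reached 2000 CPM over the pan-endothelial list with 5 or more of its genes. Of these, 51 had a CD11c antibody count of 500 or more, 35 had 20 or more H2-Ab1 UMIs, 25 had an Xcr1 or Clec9a UMI and 6 had a marker sum under 3. Among barcodes with several hashtags, which belong to no sample, 33 met the same mark. Neither set entered a comparison.

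Cxcl10 in endothelial-like cells moved in opposite directions in the disease states. In leukemia it was 17.73-fold higher with panobinostat than with vehicle (4.808 to 148), with 1093 and 1749 CPM in the panobinostat samples, against 283 and 0 CPM in the vehicle samples. Without leukemia vehicle 2 the leukemia ratio was 5.745. In WT it was at 0.5247-fold. Plpp3 did the same, at 4.468-fold against a floor of 3 counts in leukemia (lower limit 3.495) and at 0.2891-fold in WT. These were 2 of 6 such genes among 796, the others being Malat1, Gm42418, Rps9 and Emp3. The difference between disease states was not tested, and the leukemia vehicle side rests on 6 cells.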

How the results depend on the processing

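Counts of genes called in gated cells depended on the samples and the filter. For panobinostat the count was 0, with 125 when every gene with 1 or more UMI was tested, 10 in leukemia samples only, and 0 to 88 with 1 sample left out. For leukemia against WT it was 0, with 83 without the filter, 1 by DESeq2, 2 in other gated cells alone, and 0 to 50 with 1 sample left out. For the difference from dendritic cells it was 2, with 95 without the filter, 109 against all other kept barcodes, and 0 to 260 with 1 sample left out. The share difference of -1.888 percentage points turned to 0.3743 in endothelial-like cells only and to 0.7063 without leukemia vehicle 2, and ranged from -3.268 to 0.7063 with 1 sample left out. The Siglec-H difference of -7.833 ranged from -12.42 to -1.167. Mt1 turned to 0.6248-fold in WT without cells over 10000 UMIs. The cause of these shifts was not tested. RLE scaling, a marker sum of 5, 2 gate genes, a hashtag ratio of 4 and removal of doublets kept 0 calls for both factors. A marker sum of 5 and a hashtag ratio of 4 left 5 samples in the fit, and 2 gate genes left 4. Those fits rest on fewer samples than the one over 6, and their power was not tested. With the leukemia numbers as a replicate block, 0 genes were called in leukemia samples; the labels do not say that the numbers pair samples, and 2 pairs are too few to check it. The number of endothelial-like cells, 5, 2 and 4 in 3 of the samples, limits what can be compared.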
